A study of Mus musculus with 4 samples.

Results

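Apobec3, Samhd1, Trex1, Isg20, Mov10 and Bst2 are host genes whose products act on viral or retroelement nucleic acid, or hold budding virus at the cell surface. These 6 genes were chosen by name, with earlier results of these data known, from 54532 genes in the deposited count table. Their RNA was followed in CD8+ T cells with and without IFNα. Naive CD8+ T cells from C57BL/6 mouse spleen, isolated with magnetic beads, were the source of all 4 samples. In the IFNα group (2 samples) the cells received 2000 U/ml IFNα together with antibodies to CD3 and CD28, which engage the T cell receptor complex and a costimulatory receptor, and were kept for 48 h. In the control group (2 samples) they were kept for 48 h with the same antibodies and no IFNα. Both groups were thus activated, no genetic change is named for either, and the labels give no age or sex of the animals, while the age that the study's methods state for its mice is not tied to these cells. The samples are called IFNα 1, IFNα 2, control 1 and control 2, in that order of their values.

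Type I interferons such as IFNα signal through the IFNAR1 and IFNAR2 receptor chains to the transcription factor complex ISGF3, which binds interferon-stimulated response elements (ISRE) in the promoters of antiviral genes. Another element of interferon-responsive promoters is the gamma-activated site (GAS). Restriction factors act inside the infected cell at separate steps of a viral life cycle. Apobec3 deaminates cytidine in nascent retroviral DNA, Samhd1 hydrolyses the dNTPs that reverse transcription needs, and Trex1 degrades cytosolic DNA from its 3′ end. Isg20 is a 3′ exonuclease that acts mainly on single-stranded RNA, Mov10 is an RNA helicase of the UPF1-like group that limits retroelements, and Bst2 (tetherin) anchors enveloped particles to the plasma membrane as they leave the cell.

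Isg20, Bst2 and Mov10 RNA rose with IFNα, by 22.8-fold, 7.49-fold and 3.50-fold. Samhd1 was 1.44-fold and Apobec3 1.15-fold of control, and neither passed the test. Trex1 had 0 counts in all 4 samples and could not be tested. Thus 3 of 5 tested genes were called higher at an adjusted p under 0.05 (Benjamini-Hochberg, from the quasi-likelihood test of edgeR), where 1.43% of all 14417 tested genes were. All 3 also exceeded a log2 fold change of 1, which with the adjusted p was met by 1.28% of tested genes. By edgeR 0 of the 5 were called lower, where 0.222% of tested genes were. Of the 5, 0 had a negative log2 fold change, while the median over all tested genes was itself slightly negative. DESeq2 called Isg20, Bst2 and Mov10 too, and 0 lower, where it called 345 of the 14417 genes higher and 87 lower. In 5 of 5 both IFNα samples lay above both controls, which held for 23.1% of tested genes. The median log2 fold change was 1.81 over the 5 genes and -0.01 over all genes tested. As the genes were chosen with earlier results of these data known, these contrasts with all genes are a description and no test.

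Total counts were 16096121 to 17676062 a sample, at which 3 counts, the limit that a count of 0 allows, equal 0.171 to 0.188 CPM. CPM is a gene's count per 1000000 counts of its library, scaled by edgeR's TMM factors. The control samples differed from each other far more than the IFNα samples did. The chi-square of the counts per degree of freedom was 3.79 between IFNα samples over 15981 genes and 43.8 between control samples over 16000 genes. The difference between controls ran with gene length. The median log2 ratio of control 1 over control 2 was 0.37 among the 2021 genes with the shortest exon length (up to 2394 bases) and -0.37 among the 2021 with the longest (7515 bases or more), against -0.09 and 0.04 for IFNα 1 over IFNα 2. Whether samples of a group came from separate animals or cultures is not stated, so p-values here reflect the scatter among these 4 samples alone, which could be technical. CD8 T cell markers (Cd3d, Cd3e, Cd3g, Cd8a, Cd8b1, Lck, Trac) summed to 3344 and 3487 CPM in IFNα samples, against 3910 and 3154 CPM in controls, and 0 of 7 were called. Markers of NK cells, granulocytes and red cells, and Cd4, stayed under 1 CPM in every sample.

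Before the values, the promoter sequences are shown for the genes in which an interferon-related element was found, since these elements are the known route from IFNα to transcription. All 6 genes matched RefSeq promoter windows of GRCm38.p6, which run from 250 bases before to 50 bases after a transcript start, in 11 windows. The ISRE core was searched as GAAANNGAAA and the GAS as TTCNNNGAA, both strands, in 32851 windows of all genes. The ISRE core was present in 3.44% of all windows and in 2 of the 11 windows of these genes, 1 each of Bst2 and Apobec3. The GAS letters were present in 8.30% of all windows and in 3 of the 11, 1 each of Bst2, Samhd1 and Isg20. The 250 bases before the Bst2 start (chr8:71537473-71537722, minus strand) are printed 5′ to 3′ with the ISRE cores in capitals.
Bst2: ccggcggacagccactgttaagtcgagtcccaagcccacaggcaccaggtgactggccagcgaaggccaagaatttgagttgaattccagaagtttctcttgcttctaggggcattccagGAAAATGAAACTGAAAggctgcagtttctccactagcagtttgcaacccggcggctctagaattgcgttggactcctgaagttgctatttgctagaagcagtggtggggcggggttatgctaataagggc

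This Bst2 stretch holds 2 overlapping ISRE cores, GAAAATGAAA from base 130 and GAAACTGAAA from base 124 before the start. Its GAS match, TTCCAGGAA, begins at base 136 and overlaps the first core. For Isg20 no ISRE core was found in its 3 windows, and the 250 bases before its first start (chr7:78913174-78913423, plus strand) are printed with the GAS match, from base 73 to base 65 before the start, in capitals.
Isg20: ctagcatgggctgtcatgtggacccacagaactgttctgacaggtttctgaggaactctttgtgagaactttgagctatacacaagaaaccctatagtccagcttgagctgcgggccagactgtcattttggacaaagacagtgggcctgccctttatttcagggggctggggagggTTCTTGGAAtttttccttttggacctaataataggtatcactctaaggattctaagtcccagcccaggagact

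In Apobec3 and Samhd1 the RefSeq windows overlap exons annotated by GENCODE M21, so for each only the match is printed, in capitals, with its flanks. The Apobec3 match lies on the reverse strand, from base 140 to base 131 before the first of 2 RefSeq starts (window chr15:79892158-79892407), and the Samhd1 GAS from base 235 to base 227 before its start (window chr2:157135097-157135346, minus strand).
Apobec3, ISRE core: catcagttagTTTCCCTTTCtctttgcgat
Samhd1, GAS: aacaccaccctTTCGGAGAAacacaagggc

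Neither pattern was found in the 2 windows of Mov10 or the 2 windows of Trex1. Among the genes called higher, Bst2 had both patterns, Isg20 the GAS letters and Mov10 neither, while Apobec3, with the ISRE core, was not called. A match describes letters in these windows and no binding was measured. The search took these fixed letters alone, so looser forms of an element, or sites outside the windows, would be missed. A window without a match therefore does not show that a gene lacks the element.

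Isg20 (ENSMUSG00000039236), the exonuclease of single-stranded RNA, lies at chr7:78913424-78920396 on the plus strand (GRCm38 coordinates of the deposited table) with 1860 exonic bases. It had 2063 and 2297 counts in IFNα samples, against 110 and 91 counts in controls. As CPM these were 129.4 and 133.4 with IFNα, against 6.36 and 5.18 in controls. Both IFNα samples were more than an order of magnitude above both controls, and the groups were far apart beside the gap within either. The group means were 131.4 ± 2.79 CPM with IFNα and 5.77 ± 0.829 CPM in controls (SD, n = 2 each). The log2 fold change of 4.51 (SE 0.164, 95% interval 4.10 to 4.91) placed it 34th of 14417 genes, with an edgeR adjusted p of 0.000233.

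Mov10 (ENSMUSG00000002227), the RNA helicase that limits retroelements, lies at chr3:104794836-104818563 on the minus strand with 5607 exonic bases. Its counts were 2666 and 2989 in IFNα samples, against 875 and 820 in controls, or 167.3 and 173.6 CPM against 50.6 and 46.7 CPM. The samples of each group lay close together, and the groups did not overlap. Means were 170.4 ± 4.45 CPM with IFNα and 48.6 ± 2.73 CPM in controls (SD, n = 2 each). The log2 fold change was 1.81 (SE 0.125, 95% interval 1.5 to 2.12), with an edgeR adjusted p of 0.00214.

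Bst2 (ENSMUSG00000046718), the tether of budding particles, lies at chr8:71534255-71537456 on the minus strand and is the shortest of the 5 tested genes, with 903 exonic bases. It had 6974 and 8175 counts in IFNα samples, against 1295 and 825 counts in controls. The CPM values were 437.6 and 474.7 with IFNα, against 74.8 and 47.0 in controls. Control 1 was 59.2% above control 2, the widest gap between samples of a group among the 5 genes, yet both controls were far below both IFNα samples. Means were 456.1 ± 26.3 CPM with IFNα and 60.9 ± 19.7 CPM in controls (SD, n = 2 each). The log2 fold change was 2.90 (SE 0.249, 95% interval 2.29 to 3.52), with an edgeR adjusted p of 0.00509. With an offset for gene length it was 3.05 (adjusted p = 0.000219 by the same test).

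Bst2 is also a marker of plasmacytoid dendritic cells, and beside its rise the markers of other cells were as follows. Of the 4 other plasmacytoid markers, Siglech had 0 and 0 counts in IFNα samples, against 2 and 1 in controls, and Klk1 had 0 counts in all 4 samples. Cox6a2 had 3 and 8 counts in IFNα samples, against 0 and 0 in controls, too few to be tested. Ccr9, which T cells also express, made up nearly all of that list's sum of 45.8 and 45.8 CPM with IFNα, against 44.1 and 54.1 CPM in controls. Macrophage and monocyte markers summed to 11.5 and 14.6 CPM with IFNα, against 25.4 and 23.3 CPM in controls, and Lyz2 was called lower (log2 fold change -1.46, edgeR adjusted p = 0.0297), 1 of 3 tested of 6. Cd68 and Csf1r, also tested, had log2 fold changes of -0.26 and -0.02 and were not called. Lyz2 alone had 4.96 and 6.10 CPM with IFNα, against 16.5 and 14.0 CPM in controls. B cell markers summed to 12.7 and 12.0 CPM with IFNα, against 19.6 and 17.8 CPM in controls, with Ms4a1 at 0 to 1 count a sample. Conventional dendritic cell markers summed to 2.64 and 2.55 CPM with IFNα, against 4.05 and 3.93 CPM in controls. All of these sums but the plasmacytoid one were lower in both IFNα samples than in both controls. Their part in the Bst2 result was not tested, and in bulk RNA fewer cells of a type and less RNA per cell cannot be told apart.

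**Figure D1:**
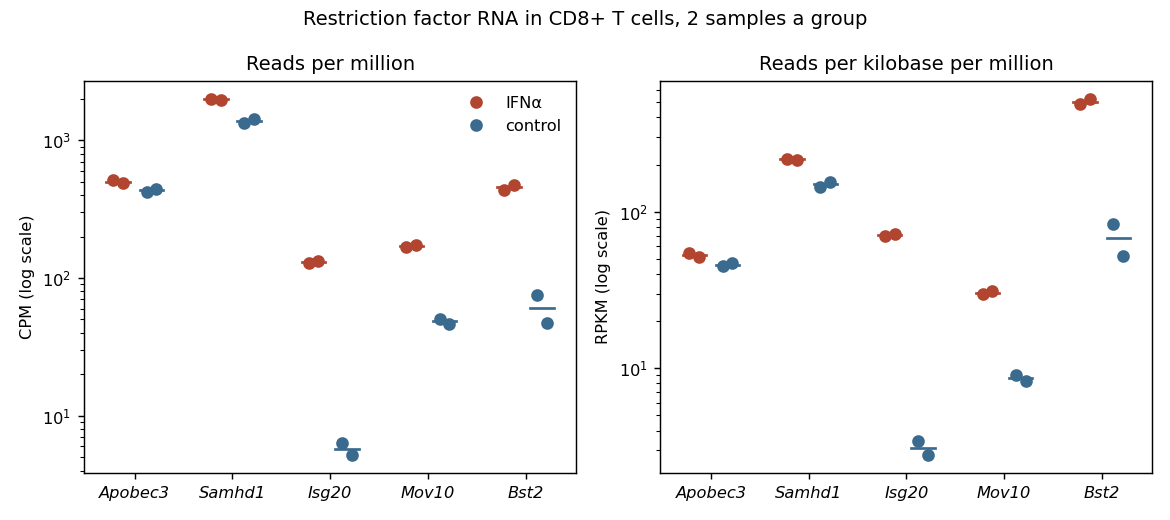
RNA of the 5 genes with counts in each sample (points) and the mean of each group (lines), IFNα to the left of control, as CPM (left) and as CPM per kilobase of exon, RPKM (right), both on log axes. Isg20, Mov10 and Bst2 are far higher in both IFNα samples than in both controls, Samhd1 and Apobec3 by 1.44-fold and 1.15-fold, and the control samples of Bst2 lie apart at 74.8 and 47.0 CPM.

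Samhd1 (ENSMUSG00000027639), the dNTP hydrolase, lies at chr2:157097533-157135265 on the minus strand with 9150 exonic bases. It had 31829 and 33732 counts in IFNα samples, against 22885 and 24933 counts in controls, or 1997 and 1959 CPM against 1323 and 1420 CPM. The groups did not overlap, and the gap between them was wider than the gap between samples of either group. Means were 1978 ± 27.1 CPM with IFNα and 1372 ± 69.2 CPM in controls (SD, n = 2 each). The log2 fold change of 0.53 (SE 0.163, 95% interval 0.13 to 0.93) had an unadjusted p of 0.0185 and an adjusted p of 0.302 by edgeR's test, so Samhd1 was not called. Without control 1 it was called at 0.48 (adjusted p = 5.08e-06) and without control 2 at 0.58 (adjusted p = 3.55e-08), in fits that called 1136 and 3446 genes higher. Such a fit has 1 control and takes its error from the IFNα samples alone (chi-square per degree of freedom 3.79, against 43.8 between controls), so these p-values do not carry the difference between controls. With IFNα 1 or IFNα 2 left out it was not called.

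Apobec3 (ENSMUSG00000009585), the cytidine deaminase, lies at chr15:79891659-79915906 on the plus strand with 9454 exonic bases, of which 776 (8.21%) are shared with exons of D730005E14Rik or Cbx7. It had 8176 and 8370 counts in IFNα samples, against 7343 and 7771 counts in controls, or 513.0 and 486.0 CPM against 424.4 and 442.7 CPM. Both IFNα samples lay above both controls, by more than the gap within either group. Means were 499.5 ± 19.1 CPM with IFNα and 433.6 ± 13.0 CPM in controls (SD, n = 2 each). The log2 fold change was 0.20 (SE 0.137) with an adjusted p of 0.610 by edgeR's test. Its 95% interval, -0.13 to 0.54 on the log2 scale, spans 0.912-fold to 1.46-fold, so no change was detectable and a rise to 1.46-fold is within the interval. Without control 2 it was called at 0.24 (adjusted p = 0.00799), in the fit that called 3446 genes higher and takes its error from the IFNα samples alone.

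**Figure D2:**
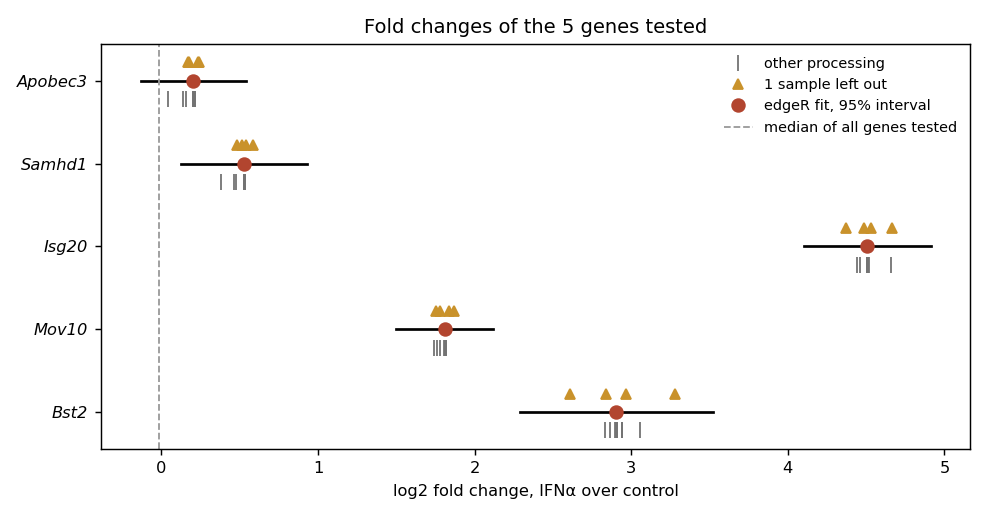
Log2 fold changes of IFNα over control from edgeR (red points) with 95% intervals (black lines), from 4 fits that each leave out 1 sample (triangles above) and from 13 other processing settings (ticks below); the dashed line is the median of all tested genes. Isg20, Mov10 and Bst2 keep their intervals above 1 at 4.51, 1.81 and 2.90, while the interval of Apobec3 includes 0.

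Trex1 (ENSMUSG00000049734), the 3′ exonuclease that clears cytosolic DNA, lies at chr9:109057933-109059734 on the minus strand with 1147 exonic bases, and had 0 counts in all 4 samples. All 1147 of these bases (100%) lie inside exons of Atrip, a gene on the same strand that encodes a partner of the ATR kinase. Atrip itself, with 7152 exonic bases, had 449 and 445 counts in IFNα samples, against 508 and 464 counts in controls. Its log2 fold change was -0.05 (SE 0.138, edgeR adjusted p = 0.905). Of 133 protein-coding genes whose exonic bases all lie in same-strand exons of other genes, 121 (91.0%) had 0 counts in all 4 samples. So did 38 of 38 (100%) that lie in opposite-strand exons, and 5605 of 15411 (36.4%) that share no exonic base. A Trex1 value of 0 thus has the same form as that of most genes nested in another gene, and whether Trex1 was expressed cannot be read from it. The part of the counting in this was not tested.

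Per kilobase of exon the genes held different ranks in each group. With IFNα the order of mean RPKM (CPM per kilobase of exon) was Bst2 (505.1 ± 29.1), Samhd1 (216.2 ± 2.96), Isg20 (70.7 ± 1.5), Apobec3 (52.8 ± 2.02) and Mov10 (30.4 ± 0.794). In controls it was Samhd1 (149.9 ± 7.56), Bst2 (67.5 ± 21.8), Apobec3 (45.9 ± 1.37), Mov10 (8.68 ± 0.486) and Isg20 (3.10 ± 0.446), all SD with n = 2. Neighbours in either order did not overlap. In controls Bst2 had 82.9 and 52.1 RPKM and Apobec3 44.9 and 46.8 RPKM. Bst2 thus stood above Samhd1 with IFNα and below it in controls, and Isg20 stood above Apobec3 and Mov10 with IFNα and below both in controls. RPKM here divides by all annotated exonic bases of a gene, from 903 for Bst2 to 9454 for Apobec3. The length of the transcripts expressed was not measured, and the controls differed along gene length. These ranks are thus no measure of relative numbers of transcripts.

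In CPM the 5 genes together held 3244 and 3227 CPM in IFNα samples, against 1879 and 1962 CPM in controls. Samhd1 was the bulk of this RNA, at 61.6% and 60.7% of the sum with IFNα, against 70.4% and 72.4% in controls. Bst2 held 13.5% and 14.7% of the sum with IFNα, against 3.98% and 2.40% in controls. Isg20 held 3.99% and 4.13% with IFNα, against 0.338% and 0.264% in controls. The share of Apobec3 was 15.8% and 15.1% with IFNα, against 22.6% and 22.6% in controls, although its own level was not lower.

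**Figure D3:**
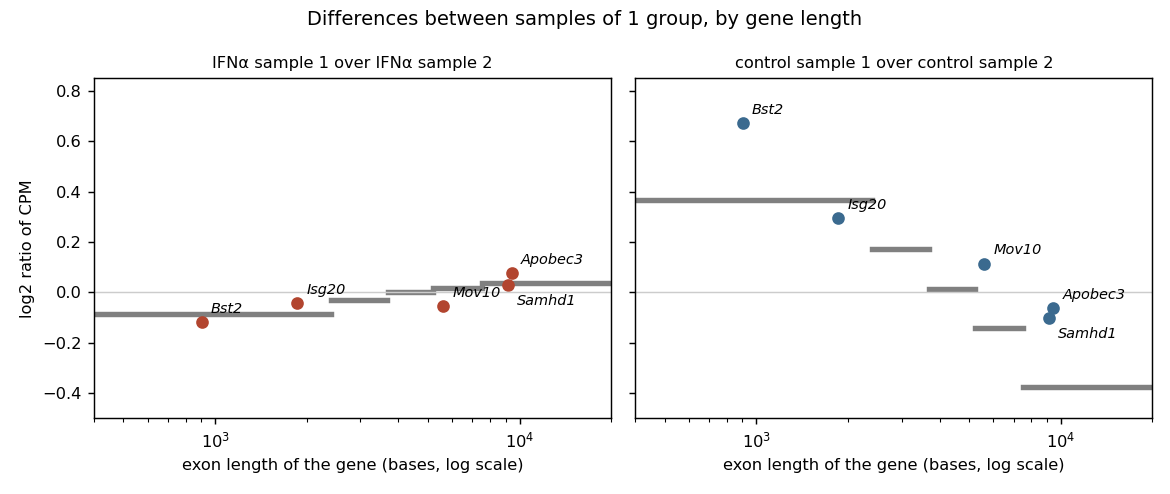
Log2 ratio of CPM between samples of 1 group against exon length (log axis), for the IFNα samples (left) and the control samples (right); points are the 5 genes and grey bars the medians of 5 equal groups of genes by length. The medians run between 0.37 and -0.37 in controls and between -0.09 and 0.04 with IFNα, and Bst2, the shortest gene, has the highest control ratio, 0.67.

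The genes differed in how their controls stood within this length pattern. The log2 ratio of control 1 over control 2 was 0.67 for Bst2 and 0.29 for Isg20, both shorter than 2394 bases, and 0.11 for Mov10. For Samhd1 and Apobec3, both longer than 7515 bases, it was -0.10 and -0.06. An offset for gene length lowered the log2 fold change of Samhd1 to 0.38 and of Apobec3 to 0.04, and left them uncalled (edgeR adjusted p = 0.25 and 0.889). Among the 2021 genes with the shortest exon length the median log2 fold change of IFNα over control was -0.19. It was 0.17 among the 2021 with the longest, the group that holds Samhd1 and Apobec3. The part of gene length in these values was not otherwise tested. Under the same offset Isg20 was at 4.66 and Mov10 at 1.78, both still called.

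Beyond these genes, 8 lists of relatives, partners and enzymes of the same pathways held 117 genes, of which 106 were tested. Of these 10 (9.43%) were called higher and 0 lower by edgeR's test, beside 1.43% and 0.222% of all tested genes, and in 3 of the 8 lists no gene was called. At an unadjusted p under 0.05 in edgeR, 4 of the 106 had a lower level, beside 800 of all 14417 tested genes. DESeq2 called 13 of the 106 higher and 0 lower, beside 345 and 87 of all 14417. The unadjusted and DESeq2 counts of single lists below stand against these same counts of all genes. The median log2 fold change of the 106 was 0.04. The lists were drawn up from general knowledge with results of these data known.

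Among deaminases that act on nucleic acids, the relatives of Apobec3, 2 of 6 tested of 9 were called higher. Adar, which edits adenosine to inosine in double-stranded RNA, had 415.5 and 392.1 CPM with IFNα, against 126.9 and 161.2 CPM in controls (log2 fold change 1.49, edgeR adjusted p = 0.0136). Apobec1, the deaminase that edits apolipoprotein B mRNA, had 16.2 and 15.04 CPM with IFNα, against 6.30 and 6.95 CPM in controls (log2 fold change 1.24, adjusted p = 0.0272 by the same test).

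Among enzymes that supply or turn over nucleotides of the dNTP pool, on which Samhd1 acts, 1 of 18 was called higher. At an unadjusted p under 0.05 in edgeR, 1 had a lower level (Nt5c). Cmpk2, a mitochondrial nucleotide kinase, had 105.3 and 107.1 CPM with IFNα, against 2.77 and 2.17 CPM in controls (log2 fold change 5.42, edgeR adjusted p = 0.00015). Rrm1 and Rrm2, the subunits of ribonucleotide reductase that makes dNTP precursors, had log2 fold changes of -0.10 and -0.01 (adjusted p = 0.768 and 0.978 by edgeR). The level of Rrm1 was 416.5 and 408.9 CPM with IFNα, against 447.4 and 438.3 CPM in controls.

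Among 24 nucleases related to or partnered with Trex1 and Isg20, 0 of 20 tested were called by edgeR or by DESeq2. At an unadjusted p under 0.05 in edgeR, 1 was higher (Aen) and 1 lower. Neither relative of Isg20 was called. Isg20l2, which takes part in ribosomal RNA processing, had 102.5 and 106.7 CPM with IFNα, against 101.9 and 94.6 CPM in controls. Aen, a p53-induced nuclease, had 107.7 and 101.7 CPM with IFNα, against 68.7 and 79.4 CPM in controls (log2 fold change 0.50, edgeR adjusted p = 0.231). Trex2, the closest relative of Trex1, had 2 and 0 counts in IFNα samples and 0 counts in controls. In the SET complex, which binds Trex1, 0 of 5 were called by edgeR or DESeq2, and 1 had a lower level at an unadjusted p under 0.05.

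Among UPF1-like helicases and RNA-silencing partners of Mov10, 2 of 17 tested of 19 were called higher. Helz2, a helicase of this group that rises in antiviral responses, had 1126 and 1078 CPM with IFNα, against 122.8 and 225.4 CPM in controls (log2 fold change 2.66, edgeR adjusted p = 0.0175). Znfx1, a helicase that senses double-stranded RNA, had 240.8 and 236.3 CPM with IFNα, against 45.1 and 62.5 CPM in controls (log2 fold change 2.15, adjusted p = 0.00527 by edgeR). Mov10l1, the germline paralog of Mov10, had 0 counts in all 4 samples. The remaining 15 tested genes of the list were not called by edgeR's quasi-likelihood test, while DESeq2 and edgeR's exact and likelihood ratio tests each called 3 of the 17 higher.

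**Figure D4:**
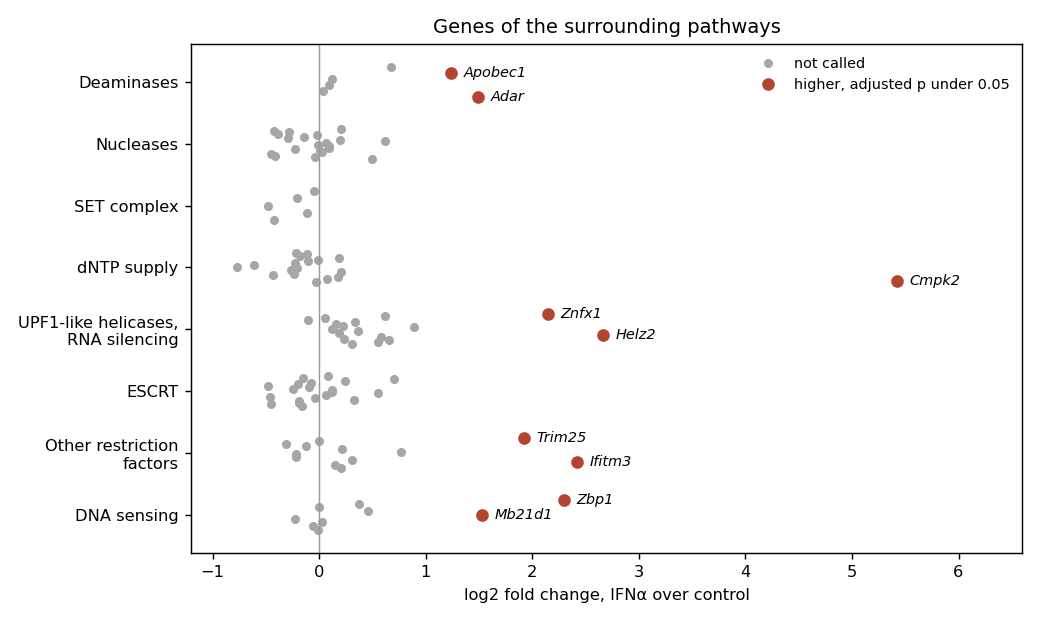
Log2 fold changes (IFNα over control) of the tested genes in 8 lists around the restriction factors, each point a gene, with those called higher at an adjusted p under 0.05 in red and named. Most points lie near 0, 9 named genes lie above 1, and Ifi204, called higher but with 3 and 0 counts in controls, is not drawn.

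Bst2 acts on particles that the ESCRT machinery has released or is about to release, and 0 of 20 ESCRT genes were called by edgeR. At an unadjusted p under 0.05, 2 were higher and 1 lower, and DESeq2 called 1 higher. Tsg101, the ESCRT subunit that many viral proteins bind, had 43.6 and 44.2 CPM with IFNα, against 52.8 and 40.8 CPM in controls, and the groups overlapped. Among other membrane or assembly restriction factors 2 of 12 tested of 14 were called higher. Ifitm3, which blocks fusion of incoming virus, had 19.7 and 18.4 CPM with IFNα, against 4.16 and 2.96 CPM in controls (log2 fold change 2.42, edgeR adjusted p = 0.00558). Trim25, a ubiquitin ligase and cofactor of the antiviral protein ZAP, had 403.8 and 391.7 CPM with IFNα, against 96.5 and 113.8 CPM in controls (log2 fold change 1.92, adjusted p = 0.00319 by edgeR).

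Trex1 and Samhd1 are known to limit the nucleic acid that cytosolic DNA sensors meet, and of 10 genes of that sensing pathway 3 were called higher. Mb21d1 (cGAS), the sensor that makes cyclic GMP-AMP, had 47.6 and 44.9 CPM with IFNα, against 14.97 and 17.15 CPM in controls (log2 fold change 1.53, edgeR adjusted p = 0.00665). Zbp1, a sensor of Z-form nucleic acid, had 567.6 and 566.7 CPM with IFNα, against 114.3 and 116.6 CPM in controls (log2 fold change 2.30, adjusted p = 0.000975 by edgeR). Ifi204, a DNA-binding protein of the Ifi200 family, had 575 and 574 counts with IFNα, against 3 and 0 counts in controls (adjusted p = 0.000747 by edgeR), and its reads may be shared with near copies in that family.

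Genes with the most similar pattern were found by the Euclidean distance between centred log2 CPM profiles over the 4 samples, among 10103 genes, as a description. Nearest to Isg20 were Usp18, the protease that removes the ubiquitin-like ISG15, and Irf7, a transcription factor of interferon genes (distances 0.0511 and 0.0581, log2 fold changes 4.53 and 4.51). Nearest to Bst2 were Plac8 and Ifi27l2a (distances 0.140 and 0.212, log2 fold changes 3.03 and 2.81). Plac8 had 422.4 and 455.5 CPM in IFNα samples, against 64.0 and 43.1 CPM in controls. Its controls too lay apart, which the choice by likeness to Bst2 over the same 4 samples favours, so this is no separate observation. Nearest to Mov10 were Sema7a and Ogfrl1 (distances 0.116 and 0.130), to Samhd1 Ehd3 and Il12rb1, an interleukin receptor chain (0.0422 and 0.0442), and to Apobec3 Dlat, a subunit of pyruvate dehydrogenase, and Gm10254 (0.0110 and 0.0184).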

How the data were processed

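RNA-seq was measured in 2 IFNα and 2 control samples, grouped by their labels. The authors mapped reads with HISAT2, counted them per gene with featureCounts and deposited raw counts; the counter's version and strand setting are not given in the sources used here. Submitters' processing notes name mm9, but 53499 of 54532 genes carry the coordinates of GENCODE M21 (GRCm38), which are used here. Total counts were 16096121 to 17676062, and any floor covers counting error alone. In R 4.3.3 with edgeR 4.0.16, genes kept by filterByExpr (14417) were normalized by TMM and tested with robust glmQLFit and glmQLFTest (common dispersion 0.0243), with condition as the only term. P-values were adjusted over all tested genes by Benjamini-Hochberg, and adjusted p under 0.05 was called. CPM is counts per 1000000, with TMM library sizes, and RPKM divides it by the deposited exon length. Alternatives used DESeq2 1.42.0 and limma 3.58.1 (voom), other scalings, filters and tests, a length offset, a replicate block, and each sample left out. The named genes are the 6 chosen, up to 3 called genes of each list by smallest p, the listed paralogs and partners, and 2 nearest profiles a gene (mean CPM of at least 5). Some genes of the lists are not reported here. The 6 genes and the lists were chosen with earlier results of these data known. Promoters are RefSeq's.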

Additional observations from a re-analysis of the deposited data

How the results depend on the processing

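Across 17 alternatives no log2 fold change of the 5 tested genes changed sign and no call was lost, and Isg20 (4.37 to 4.66), Bst2 (2.61 to 3.28) and Mov10 (1.74 to 1.87) were called under every one. Leaving out 1 sample gave 3 to 5 of the genes called higher, with Samhd1 at 0.48 to 0.58 and Apobec3 at 0.17 to 0.24. Samhd1 was called without control 1 (0.48) or control 2 (0.58), and Apobec3 without control 2 (0.24), in fits whose error comes from the IFNα samples alone. Under the other 13 alternatives Samhd1 lay at 0.38 to 0.54 (adjusted p 0.0656 to 0.645) and Apobec3 at 0.04 to 0.21 (adjusted p 0.566 to 0.902). Counts of all genes moved more. With 1 sample left out, 216 to 3446 genes were higher and 23 to 3257 lower, the largest without control 2. Higher and lower calls were 356 and 138 with no filter, 424 and 224 by edgeR's exact test, 430 and 233 by its likelihood ratio test, 345 and 87 by DESeq2, and 358 and 102 with the length offset. At an adjusted p under 0.01 they were 116 and 3, and 20 lower genes also passed a log2 fold change of 1 in size. The replicate block gave 57 lower genes. The log2 ratios of sample 1 over sample 2 had a correlation of -0.306 between the IFNα and control groups. Because the control ratio ran with gene length, this value cannot show whether same-numbered samples were paired. A block of crossed pairs, chosen after seeing the data, gave 743 higher and 340 lower. The causes of these shifts were not tested. The ISRE core was found in the same number of genes, 2, in the bases before the start alone. With 2 samples a group and 2 residual degrees of freedom, small changes such as that of Apobec3 lie under what these samples can show.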
